A study of Mus musculus with 14 samples.

Results

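Metallothioneins and target genes of the transcription factor Nrf2 were examined in skeletal muscle of mice with endothelial overexpression of c-Myc (EC-Myc OE) and of control littermates (CT). The 10 genes were taken by symbol from the 54532 genes of the deposited tables: Mt1, Mt2, Nfe2l2, Hmox1, Nqo1, Gclc, Gclm, Txnrd1, Srxn1 and Sod2. Metallothioneins are small cysteine-rich proteins that bind zinc and copper, and their transcription responds to metals through the factor Mtf1 and to glucocorticoids. Nrf2, encoded by Nfe2l2, is held at a low level by Keap1 and, once released by oxidants or electrophiles, binds antioxidant response elements together with a small Maf protein. Its targets serve heme breakdown, quinone reduction, glutathione synthesis and the thioredoxin system, which muscle uses against peroxides formed during contraction and fuel oxidation.

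The mice were FVB/N males. EC-Myc OE mice carried a Tet-O-Myc transgene encoding human c-Myc together with the tTA transactivator under the endothelial Cdh5 promoter, so that the transgene was expressed in endothelial cells once doxycycline was withdrawn at 4 to 6 weeks of age. CT littermates carried Tet-O-Myc without the transactivator. Mice received a control diet (CTD, TD.08485) or a western high-fat diet (WD, TD.88137), and the labels give 20 weeks on diet. RNA of soleus and gastrocnemius muscle was sequenced after selection with poly-T beads. By their labels, 3 libraries were CT-CTD, 3 were CT-WD, 4 were OE-CTD and 4 were OE-WD, 14 in all, and a number after a group's name is the replicate. The libraries held between 21833839 and 28519159 counted reads.

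Several points limit how the groups can be read. The names of OE-CTD 1 to 3 share a number, as do those of all 4 OE-WD libraries, and its meaning is not given. Libraries of these groups may therefore come from fewer mice than libraries, in which case n overstates the replicates and the p-values are too small. The labels do not say which muscle a library came from, and the study's text gives another time on diet for the transcriptome than the labels do. Group sizes stated with the study's transcriptome plot differ by diet, whereas those of the labels differ by genotype, and the sizes would match if the names CT-WD and OE-CTD were exchanged. Fold changes printed in the study's text for several genes, none of them among the 10, likewise match these tables under the exchanged names and not under the labels. The labels were kept, because groups here come from them alone, so that every diet or genotype named below holds only if the labels do. Under such an exchange the values below for CT-WD relative to CT-CTD would be those of EC-Myc OE relative to CT on CTD, and those for OE-CTD relative to CT-CTD would be those of WD in CT. Likewise, the values for OE-WD relative to OE-CTD and for OE-WD relative to CT-WD would change places, and the diet by genotype interaction would keep its value. In particular, the difference of Mt1 between OE-WD and CT-WD would be one of diet in EC-Myc OE muscle. No analysis of human MYC reads was made. The tissue label held, since 10 markers of skeletal muscle fibres, led by Myh4, summed to between 126868 and 183024 CPM per library.

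CT-WD 3 was examined separately. It held the highest value by more than 1 log2 unit at 51 of 15458 tested genes and the lowest by that margin at 62, whereas each of the other libraries held the highest at 0 to 14 genes and the lowest at 7 to 55. It thus stood apart in its highest values, and not in its lowest. Main results that rest on it are given with and without it.

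Levels are TMM-normalized CPM, counts scaled by edgeR to a common library size, and FPKM, the authors' values per kilobase of gene length, where genes are compared. Differences were tested with edgeR's quasi-likelihood test in a model of all 4 groups, and a gene was called altered at a change >1.5-fold with an adjusted p-value under 0.05. Statements below that the libraries of groups overlap or lie apart are descriptions. With so few libraries per group, ranges can also lie apart by chance, and the share of all genes that do so was not counted. Of the 10 genes, 9 passed the filter on low counts and Mt2 did not. On the FPKM scale the order of mean levels over the 14 libraries was Sod2 (34.0), Srxn1 (30.6), Txnrd1 (27.0), Mt1 (24.8), Nfe2l2 (14.2), Nqo1 (9.82), Gclc (6.63), Hmox1 (5.28), Gclm (4.46) and Mt2 (0.0356). The length used is that of all annotated exonic bases of a gene, 10008 for Sod2 and 1246 for Mt1, the latter its whole span. Lengths of the transcripts present were not measured, so this order depends on the annotation. The ranges over libraries of neighbours in this order overlapped, except that Nqo1 (lowest 8.50 FPKM) lay above Gclc (highest 8.43 FPKM) in all libraries and Gclm above Mt2. The place of Srxn1 rests on CT-WD 3, and without this library its mean was 23.9 FPKM, below that of Txnrd1 (26.7 FPKM). The place of Mt2 is that of its counts, which are not read here as its expression, as given below. Between libraries, the CPM of Sod2 varied least, with a highest value 1.20 times the lowest, and that of Srxn1 most, with 6.57 times. Without CT-WD 3 the ratio was 1.75 for Srxn1 and 1.17 for Sod2, and that of Mt1, 2.50, exceeded those of the other 8 genes tested.

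By the labels, CT-WD relative to CT-CTD gives the effect of WD in CT muscle. Of the 9 genes tested, 0 were altered in CT-WD relative to CT-CTD, as were 0 of all 15458 genes (0%), while 1125 genes had an unadjusted p-value under 0.05. At that unadjusted level 4 of the 9 genes were higher, Mt1, Srxn1, Nfe2l2 and Txnrd1, against 4.19% of all genes, and 0 were lower, against 3.09%. In edgeR's test Nfe2l2 was no longer under that level without CT-WD 3 (unadjusted p = 0.344), CT-CTD 1 (0.0947) or CT-CTD 3 (0.0665), nor was Txnrd1 without CT-CTD 3 (0.0934). The median log2 fold change of the 9 genes was 0.30, and that of all genes 0.0071. DESeq2's Wald test called 1 of the 9, Mt1, among 31 genes, and limma on FPKM called 0 of the 9. Deviations from the group means correlated at 0.123 to 0.385 between same-numbered CT libraries. With the replicate number as a block, which the main test leaves out, 10 genes were altered, 0 of the 9 among them.

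For WD in EC-Myc OE muscle by the labels, 0 of the 9 genes were altered in OE-WD relative to OE-CTD, against 0.00647% of all genes, which is 1 gene, Zbtb16. At an unadjusted p-value under 0.05, where edgeR placed 650 genes, 0 of the 9 were higher (1.93% of all genes) and 0 were lower (2.27%). DESeq2 and limma also called 0 of the 9. The log2 fold changes of the 9 genes lay between -0.09 for Sod2 and 0.29 for Mt1.

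Between genotypes on WD by the labels, 1 of the 9 genes was altered in OE-WD relative to CT-WD, Mt1, against 0.563% of all genes (87 genes). At an unadjusted p-value under 0.05, 0 of the 9 were higher (8.44% of all genes) and 2 were lower, Mt1 and Srxn1 (8.42%), of which Srxn1 was not without CT-WD 3 (unadjusted p = 0.835 in edgeR's test). The 9 genes' median log2 fold change was -0.11, beside 0.0056 over all genes. The 87 genes became 905 without CT-WD 1, 53 or 43 without OE-CTD 1 or 2, 57 without OE-CTD 3, 13 without CT-WD 2 or OE-WD 4, 7 without CT-WD 3, 6 without OE-WD 3 and 4 without OE-WD 2.

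Between genotypes on CTD, 0 of the 9 were altered in OE-CTD relative to CT-CTD, against 1.91% of all genes (295 genes), and DESeq2 and limma called 0 as well. At an unadjusted p-value under 0.05, where edgeR placed 2462 genes, 0 of the 9 were higher (9.22%) and 1 was lower, Gclm (6.7%), which without CT-CTD 1 was not (unadjusted p = 0.0533 in edgeR's test). The 295 genes became 64 without CT-CTD 3, 99 without CT-CTD 2, 102 without OE-CTD 2 or OE-CTD 3 and 170 without OE-CTD 1. The 9 genes stayed at 0 altered without each of the 14 libraries.

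The difference between both diet responses was tested as the diet by genotype interaction, in which 0 of the 9 genes and 0 of all genes (0%) were altered in edgeR's test. At an unadjusted p-value under 0.05, 915 genes passed. Of the 9, 0 were higher at this level (2.57% of all genes) and 2 were lower, Mt1 and Srxn1 (3.34%). Without CT-WD 3 neither was under that level (unadjusted p = 0.163 and 0.202 in edgeR's test), and Mt1 was not without CT-CTD 1 (0.0532), CT-CTD 2 (0.0993), OE-CTD 3 (0.068), OE-WD 1 (0.0671) or OE-WD 3 (0.0677). DESeq2 and limma called 0 of the 9 for the interaction. Comparisons that use the same group share its libraries, so that a high value in CT-WD enters the diet comparison in CT, the genotype comparison on WD and the interaction alike.

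**Figure D1:**
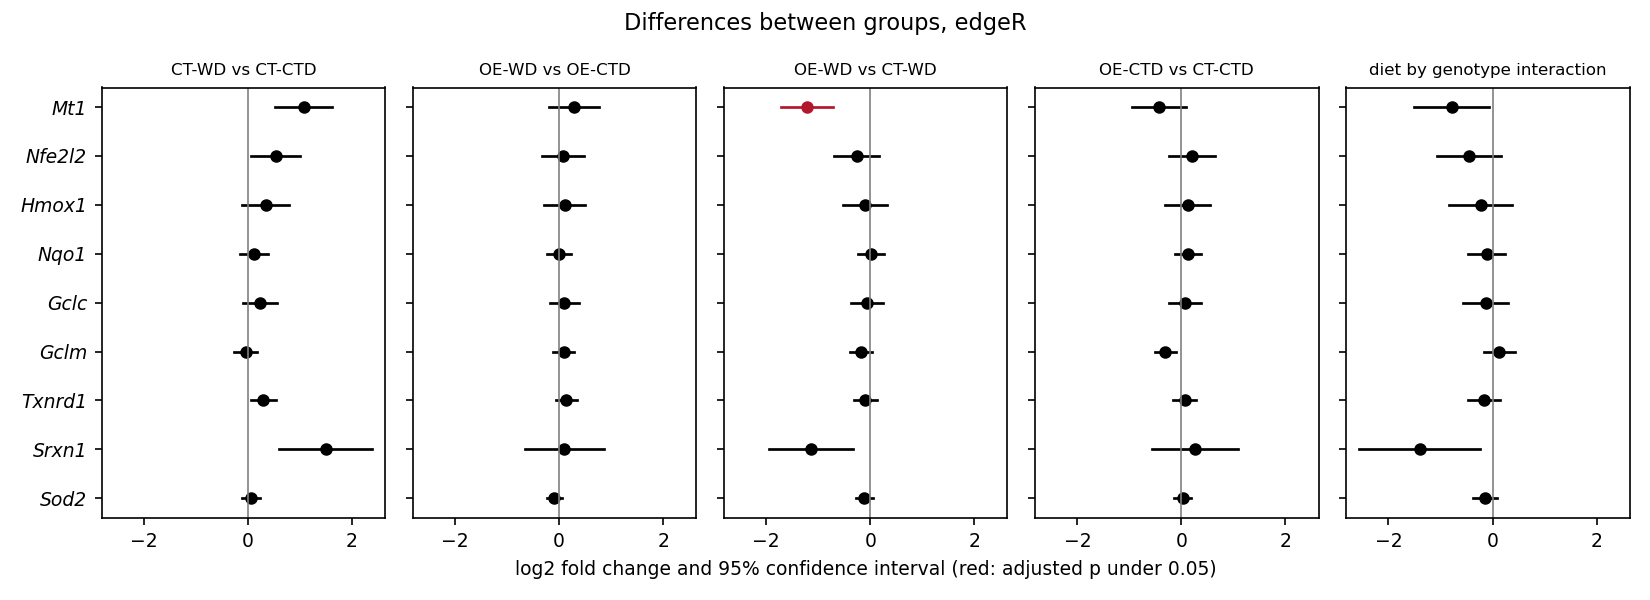
Log2 fold changes of the 9 tested genes (points) with 95% confidence intervals (lines) in the 4 comparisons and the diet by genotype interaction, from edgeR's model of 14 libraries; red marks an adjusted p-value under 0.05. Only Mt1 in OE-WD relative to CT-WD (log2 fold change -1.21) is red, and the intervals of Srxn1 are the widest in each panel.

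Mt1 (ENSMUSG00000031765, protein coding, GRCm38 chromosome 8, bases 94179082 to 94180327, plus strand) encodes the metal-binding protein metallothionein 1. In order of replicate, CT-CTD libraries held 25.3, 18.6 and 30.5 CPM and CT-WD libraries 41.0, 41.1 and 74.8 CPM. For OE-CTD libraries the values were 17.0, 18.6, 21.7 and 16.5 CPM, and for OE-WD libraries 18.6, 23.0, 16.4 and 32.1 CPM. Every CT-WD library lay above every library of the other groups, with CT-WD 3 highest, while CT-CTD, OE-CTD and OE-WD overlapped. Means ± SD were 52.3 ± 19.5 for CT-WD (n = 3), 24.8 ± 5.95 for CT-CTD (n = 3), 22.5 ± 6.92 for OE-WD (n = 4) and 18.4 ± 2.34 CPM for OE-CTD (n = 4).

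Mt1 fell in OE-WD relative to CT-WD, by 1.21 on the log2 scale (standard error 0.238, edgeR adjusted p = 0.0322), and it was lower in 4 of 4 OE-WD libraries than in any CT-WD library. The size of this decrease ran from -1.43 to -0.87 when single libraries were omitted, with edgeR adjusted p-values of 0.00607 to 0.173. The call was lost without CT-WD 3 (log2 fold change -0.87, adjusted p = 0.173), CT-WD 2 (adjusted p = 0.0666), OE-CTD 2 (0.0516), OE-WD 1 (0.0567), OE-WD 2 (0.104) or OE-WD 3 (0.0931). Over the other settings the adjusted p ran from 1.58e-05 to 0.212. The call was also lost with the replicate block (log2 fold change -1.38, edgeR adjusted p = 0.212), in edgeR's fit of OE-WD and CT-WD alone (0.158) and with limma on FPKM (0.056).

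In CT-WD relative to CT-CTD the log2 fold change of Mt1 was 1.08 (standard error 0.258, unadjusted p = 0.000784, edgeR adjusted p = 0.394), with 3 of 3 CT-WD libraries above all CT-CTD libraries. It did not pass the adjusted level in edgeR's test, also not with the replicate block (1.05, adjusted p = 0.0886). It passed with DESeq2 (adjusted p = 0.0215) and in edgeR without the filter on low counts (0.00103), and over all its settings other than single libraries the adjusted p ran up to 0.981. Without CT-WD 3 the log2 fold change was 0.73 (unadjusted p = 0.00717 in edgeR's test). The corresponding value between the EC-Myc OE groups was 0.29 (95% confidence interval -0.19 to 0.77). The interaction of Mt1 was -0.79 (standard error 0.342, unadjusted p = 0.0356, edgeR adjusted p = 0.837), and -0.44 without CT-WD 3 (unadjusted p = 0.163). For OE-CTD relative to CT-CTD, Mt1 had -0.43 (95% confidence interval -0.94 to 0.088).

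**Figure D2:**
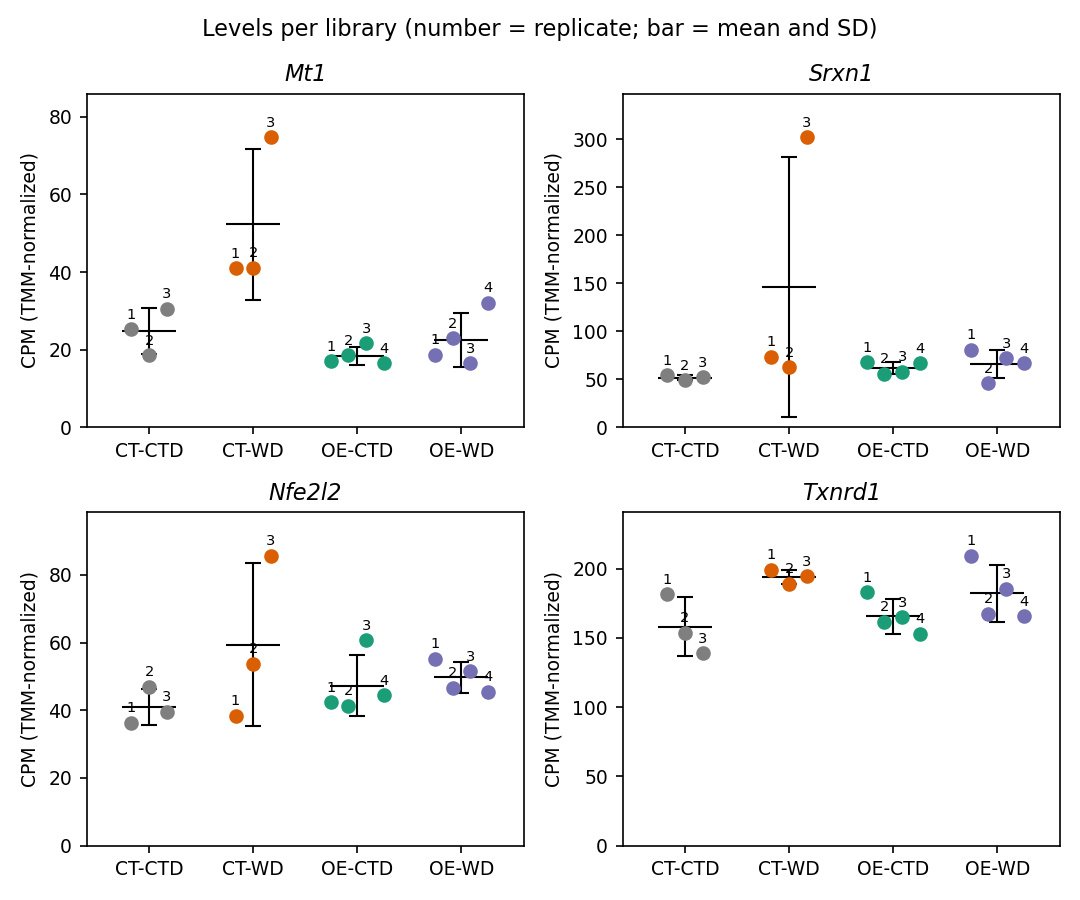
TMM-normalized CPM (y axis, from 0) of Mt1, Srxn1, Nfe2l2 and Txnrd1 in the 4 groups (x axis), with a point for each library, its replicate number, and the mean and SD of the group as bars. CT-WD 3 is the highest library for Mt1 (74.8 CPM), Srxn1 (302.2 CPM) and Nfe2l2 (85.8 CPM) but not for Txnrd1.

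Mt2 (ENSMUSG00000031762, protein coding, GRCm38 chromosome 8, bases 94172664 to 94173568, plus strand) encodes the closely related metallothionein 2 and ends 5513 bases before Mt1 starts. It had 0, 0 and 1 counts in CT-CTD 1 to 3, 2, 1 and 0 in CT-WD 1 to 3, 0 in each of OE-CTD 1 to 4 and 1, 2, 0 and 0 in OE-WD 1 to 4. All 14 libraries were under 3 counts, which is the upper bound for an observed 0, so no fold is given. Its position overlaps the gene Gm45774 (ENSMUSG00000110588, antisense, 94170748 to 94173412, minus strand), whose 1 exon covers 432 of the 588 exonic bases of Mt2 (73.5%) and leaves the last 156 bases, 94173413 to 94173568. Gm45774 itself had 0 to 17 counts per library. The strand setting of the counting is not given in the sources used here. Without strand, reads of the shared stretch cannot be told apart, and the counts of Mt2 are not read here as its expression. Among protein-coding genes with at least 70% of their exonic bases under an exon of the opposite strand, 69 of 100 (69%) had 3 counts or fewer in every library, compared with 6103 of all 21918 protein-coding genes in the count table and the annotation (27.8%). The part of the overlap in these low counts, those of Mt2 included, was not tested. Of the other 9 genes, only Gclm shared exonic bases with another gene, 4.71% of its length.

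**Figure D3:**
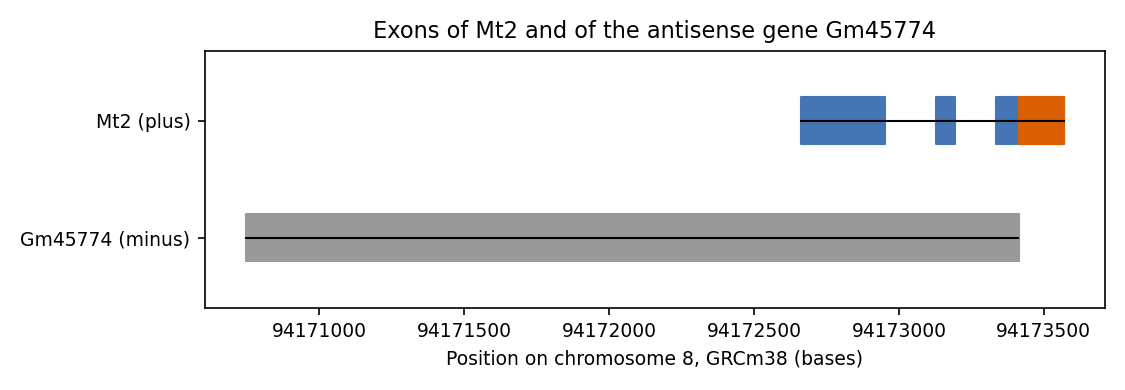
Exons of Mt2 (blue and orange, plus strand) and of Gm45774 (gray, minus strand) along chromosome 8 of GRCm38 (x axis, bases). Orange marks the 156 bases of Mt2 that lie outside the exon of Gm45774.

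Glucocorticoid-responsive genes were examined beside Mt1, since metallothionein genes are known targets of the glucocorticoid receptor. In OE-WD relative to CT-WD, 11 of 19 such genes were lower at an unadjusted p-value under 0.05 (8.42% of all genes) and 0 were higher (8.44%), with a median log2 fold change of -0.53. The altered genes were 3 of 19, beside 0.563% of all genes. Altered among them were Fkbp5, a co-chaperone of the receptor (-1.91, edgeR adjusted p = 0.0399), Pdk4, an inhibitor of pyruvate dehydrogenase (-1.08, adjusted p = 0.043), and Trim63, a muscle ubiquitin ligase (-1.43, adjusted p = 0.0276). With single libraries left out in edgeR's test, the call of Fkbp5 was lost without CT-WD 2 or 3, OE-CTD 1, 2, 3 or 4 or OE-WD 2, 3 or 4 (adjusted p up to 0.173). That of Pdk4 was lost without CT-CTD 2 or 3, CT-WD 2 or 3, OE-CTD 1, 2 or 3 or OE-WD 2, 3 or 4 (adjusted p up to 0.162), and that of Trim63 without CT-WD 2 or 3 or OE-WD 2, 3 or 4 (adjusted p up to 0.112). The log2 fold changes stayed at -1.64, -0.93 and -1.21 or below. In edgeR's fit of both groups alone the calls of Fkbp5, Pdk4 and Trim63 were lost (adjusted p = 0.117, 0.184 and 0.154), and with limma those of Fkbp5 and Pdk4 (0.0952 and 0.0555). The replicate block also ended the calls of Fkbp5, Pdk4 and Trim63 (edgeR adjusted p = 0.273, 0.255 and 0.274).

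In OE-CTD relative to CT-CTD, 6 of 19 were lower and 3 higher at the unadjusted level (6.7% and 9.22% of all genes), with a median of -0.24, and 3 were altered (1.91% of all genes). Altered were Fkbp5 (-2.29, edgeR adjusted p = 0.00976), Zbtb16, a zinc finger repressor (-1.02, adjusted p = 0.00575), and Fbxo32, another muscle ubiquitin ligase (-1.04, adjusted p = 0.0345). With the replicate block the calls of Zbtb16, Fkbp5 and Fbxo32 were all lost (edgeR adjusted p = 0.0842, 0.0976 and 0.145). That of Fkbp5 was also lost without CT-CTD 3 (adjusted p = 0.0654), and that of Fbxo32 without CT-CTD 1, 2 or 3 or OE-CTD 1, 2, 3 or 4 (adjusted p up to 0.131) and with limma (0.0623).

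For CT-WD relative to CT-CTD, 8 of the 19 genes were higher at the unadjusted level (4.19% of all genes), 0 were lower (3.09%) and 0 altered (median 0.47). Fkbp5 was not among these 8, with a log2 fold change of 0.13 (unadjusted p = 0.761 in edgeR's test), where Mt1 had 1.08. In OE-WD relative to OE-CTD 2 were higher (1.93% of all genes), with Zbtb16 altered (1.23, edgeR adjusted p = 0.00559, and 0.0548 without OE-CTD 1). The summed level of the list, with Pdk4 as its most abundant gene, was by replicate 5534, 4467 and 4879 (CT-CTD), 5596, 7908 and 7995 (CT-WD), 3388, 3204, 3354 and 3033 (OE-CTD) and 5227, 3198, 3893 and 3128 CPM (OE-WD). The 3 CT-WD libraries, those with the highest Mt1, were also highest for this list, CT-WD 1 (5596 CPM) only slightly above CT-CTD 1 (5534 CPM). The part of these genes in the difference of Mt1 was not tested.

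Mt1 and Fkbp5 were related across the 14 libraries, as Pearson's r = 0.73 (permutation p = 0.00327, adjusted p = 0.0194 over 8 pairs of genes) and Spearman's rho = 0.79 (permutation p = 0.00112, adjusted p = 0.00896). The tests were two-sided. Without CT-WD 3 and CT-WD 2, the libraries farthest from the median of Mt1, r was 0.56. On deviations from the group means it was 0.50, so that part of the relation lay between groups. Without CT-WD 3 alone r was 0.68 and its adjusted permutation p 0.093. Both pairs planned with Mt2 could not be computed. The tested genes whose log2 CPM followed Mt1 most closely over the 14 libraries were Ppme1 (r = 0.89), Gpr146 (r = 0.87) and Rbp7 (r = 0.87), given as a description, and without CT-WD 3 r was 0.82, 0.75 and 0.76. Rbp7, a retinol-binding protein, had 23.0 and 27.5 CPM in CT-WD 2 and 3 and between 7.82 and 14.3 CPM in the other libraries.

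Metal homeostasis was represented by 19 other genes, mainly zinc and copper transporters, of which 18 were tested. Altered was Slc30a2, a zinc exporter, in OE-CTD relative to CT-CTD (log2 fold change -1.29, edgeR adjusted p = 0.0241). This made 1 of 18 altered in that comparison, beside 1.91% of all genes. At the unadjusted level 2 were higher there and 2 lower (9.22% and 6.7% of all genes). The level of Slc30a2 was 10.2 ± 1.26 CPM (SD, n = 4) in OE-CTD and 24.9 ± 10.9 CPM (SD, n = 3) in CT-CTD, and its call was lost without CT-CTD 2 or 3 or OE-CTD 2 or 3 (adjusted p up to 0.157) and with limma (0.0648). The replicate block ended this call as well (edgeR adjusted p = 0.16). For OE-WD relative to CT-WD, 4 of 18 were higher and 2 lower at the unadjusted level (8.44% and 8.42% of all genes) and 0 were altered (0.563%). The smallest p-values were those of the zinc importers Slc39a6 (0.91, edgeR adjusted p = 0.0936) and Slc39a10 (0.39, adjusted p = 0.196) and of Slc30a2 (-0.97, adjusted p = 0.104). Comparing CT-WD with CT-CTD, 1 was higher and 1 lower (4.19% and 3.09% of all genes), and in OE-WD relative to OE-CTD 0 passed in either direction (1.93% and 2.27%).

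Nfe2l2 (ENSMUSG00000015839, protein coding, chromosome 2, 75675513 to 75704641, minus strand), which encodes Nrf2 itself, was measured in every library. Replicates of CT-CTD gave 36.4, 46.9 and 39.6 CPM, those of CT-WD 38.5, 53.8 and 85.8 CPM. Replicates of OE-CTD gave 42.5, 41.4, 60.7 and 44.5 CPM, those of OE-WD 55.2, 46.6, 51.5 and 45.5 CPM. CT-WD 3 was the highest library, and the 4 groups overlapped. Between CT-WD and CT-CTD its log2 difference was 0.53 (standard error 0.219, unadjusted p = 0.0275, edgeR adjusted p = 0.622). Without CT-WD 3 it was 0.17 (unadjusted p = 0.344) and without CT-WD 1 it was 0.77 (unadjusted p = 0.000985, edgeR adjusted p = 0.105). In the other comparisons it lay between -0.25 in OE-WD relative to CT-WD and 0.21 in OE-CTD relative to CT-CTD, with unadjusted p-values of 0.229 and 0.333 in edgeR's test. The activity of Nrf2 is set mainly through its protein, which was not measured.

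Among 11 regulators and partners of Nrf2, 1 was altered in any comparison, the small Maf protein gene Mafk in OE-CTD relative to CT-CTD (log2 fold change 0.66, edgeR adjusted p = 0.0434). Of all genes, 1.91% were altered in that comparison. At the unadjusted level 1 of the 11 was higher there and 2 were lower (9.22% and 6.7% of all genes). Mean ± SD of Mafk was 41.4 ± 5.91 in OE-CTD, 26.3 ± 3.07 in CT-CTD, 42.9 ± 11 in CT-WD and 41.4 ± 5.48 CPM in OE-WD, so that CT-CTD had the lowest mean. Its call in edgeR's test was lost without CT-CTD 1, 2 or 3, OE-CTD 1, 2, 3 or 4 or OE-WD 1, 3 or 4 (adjusted p up to 0.205), and so it was with limma (0.0729). With the replicate block the call of Mafk was lost too (edgeR adjusted p = 0.0989). In the same comparison Bach1, a repressor that competes for antioxidant response elements, had -0.37 (adjusted p = 0.121) and Cul3, the ubiquitin ligase scaffold of Keap1, -0.20 (adjusted p = 0.123) in edgeR's test. In CT-WD relative to CT-CTD, 4 of the 11 were higher at the unadjusted level (4.19% of all genes), Mafk (0.71), Maff (1.53), Mafg (0.22) and Bach1 (0.31), 0 were lower (3.09%) and 0 altered, with edgeR adjusted p-values of 0.394, 0.427, 0.604 and 0.617. Comparing OE-WD with CT-WD, Bach1 (-0.43, adjusted p = 0.0975) and Maff (-0.78, adjusted p = 0.29) had the smallest p-values in edgeR's test, followed by Rbx1 (-0.16, adjusted p = 0.41). Between OE-WD and OE-CTD, 2 of the 11 were higher at the unadjusted level (1.93% of all genes) and 0 altered.

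Srxn1 (ENSMUSG00000032802, protein coding, chromosome 2, 152105516 to 152111376, plus strand) encodes sulfiredoxin, which restores overoxidized peroxiredoxins. By replicate, CPM values were 54.4, 48.7 and 51.9 (CT-CTD), 73.2, 62.1 and 302.2 (CT-WD), 67.5, 55.5, 57.8 and 66.4 (OE-CTD) and 80.5, 46.0, 71.7 and 66.3 (OE-WD). CT-WD 3 alone was far above all other libraries, and both other CT-WD libraries lay within the range of OE-WD. For CT-WD relative to CT-CTD the log2 fold change was 1.5 (standard error 0.421, unadjusted p = 0.00276, edgeR adjusted p = 0.461), and 0.39 without CT-WD 3 (unadjusted p = 0.0399, adjusted p = 0.93). For OE-WD against CT-WD it was -1.14 (standard error 0.382, unadjusted p = 0.00902, edgeR adjusted p = 0.154), and -0.035 without CT-WD 3 (unadjusted p = 0.835). Without CT-WD 1 it was -1.46 and past the adjusted level (edgeR adjusted p = 0.0241). The interaction was -1.40 (unadjusted p = 0.0219, edgeR adjusted p = 0.834), and -0.29 without CT-WD 3 (unadjusted p = 0.202). The values of Srxn1 for OE-WD relative to CT-WD and for the interaction therefore rest on CT-WD 3, as does the size of that for CT-WD relative to CT-CTD, where the other CT-WD libraries also lay above all CT-CTD libraries. The OE-CTD libraries likewise lay above all CT-CTD libraries, with a log2 fold change of 0.26 (95% confidence interval -0.57 to 1.09).

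The genes that followed Srxn1 most closely over the 14 libraries were Nfat5 (r = 0.96), a factor of the osmotic stress response, Hspb1 (r = 0.95), a small heat shock protein, and Atf3 (r = 0.95), a stress-induced transcription factor. In CT-WD 3 these had 75.8, 893.2 and 307.1 CPM, and in the other 13 libraries at most 35.5, 297.7 and 31.9 CPM. Without CT-WD 3, r was 0.62, 0.50 and 0.62, so that much of the likeness lay in this library.

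Txnrd1 (ENSMUSG00000020250, protein coding, chromosome 10, 82833951 to 82897712, plus strand) encodes the cytosolic thioredoxin reductase. The replicates read, in CPM, 181.4, 153.9 and 139.2 (CT-CTD), 199.1, 189.1 and 194.5 (CT-WD), 182.9, 161.6, 165.0 and 153.2 (OE-CTD) and 209.5, 167.6, 185.4 and 165.9 (OE-WD). The CT-WD libraries lay above all CT-CTD libraries and overlapped OE-WD. Comparing CT-WD with CT-CTD the log2 fold change was 0.30 (95% confidence interval 0.061 to 0.53, unadjusted p = 0.0168, edgeR adjusted p = 0.595), and 0.21 without CT-CTD 3 (unadjusted p = 0.0934). Between OE-WD and OE-CTD it was 0.14 (unadjusted p = 0.174 in edgeR's test).

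Glutathione synthesis was represented by both subunits of glutamate-cysteine ligase. Gclm (ENSMUSG00000028124, protein coding, chromosome 3, 122245557 to 122270732, plus strand) encodes the modifier subunit. Replicates in order gave CPM of 32.3, 27.0 and 26.5 (CT-CTD), 30.1, 26.8 and 26.2 (CT-WD), 23.7, 21.7, 22.6 and 24.5 (OE-CTD) and 26.4, 24.9, 25.5 and 21.3 (OE-WD). All OE-CTD libraries were below all CT-CTD libraries. In OE-CTD relative to CT-CTD the log2 fold change was -0.31 (standard error 0.0979, unadjusted p = 0.0065, edgeR adjusted p = 0.117), from -0.36 to -0.22 when single libraries were omitted, and its adjusted p was above 0.05 in every setting (0.0707 to 0.308). In OE-WD relative to CT-WD it was -0.18 (unadjusted p = 0.0888 in edgeR's test). Gclc (ENSMUSG00000032350, protein coding, chromosome 9, 77754535 to 77794485, plus strand) encodes the catalytic subunit. By replicate, CPM values were 20.7, 22.8 and 19.7 (CT-CTD), 23.6, 21.5 and 28.9 (CT-WD), 25.3, 18.6, 24.7 and 19.6 (OE-CTD) and 27.0, 21.7, 25.99 and 19.6 (OE-WD). CT-WD 3 was highest and the groups overlapped, with log2 fold changes between -0.06 and 0.23 in the 4 comparisons. Across the 14 libraries Gclc and Gclm had r = 0.18 (permutation p = 0.546) and rho = 0.20 (permutation p = 0.491).

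Nfe2l2 and Gclc had r = 0.68 (permutation p = 0.00485, adjusted p = 0.0194) and rho = 0.60 (permutation p = 0.0274, adjusted p = 0.11). Without CT-WD 3 and OE-CTD 3, the libraries farthest from the median of Nfe2l2, r was 0.47, and on deviations from the group means 0.61. Without CT-WD 3 alone its adjusted permutation p was 0.276. Nfe2l2 and Srxn1 had r = 0.75 (permutation p = 0.0175, adjusted p = 0.0466) but rho = 0.32 (permutation p = 0.267, adjusted p = 0.485), and r = 0.32 without CT-WD 3 and OE-CTD 3 and 0.69 on deviations from the group means. The relation rests on CT-WD 3, with r = 0.21 and an adjusted permutation p of 0.647 without this library alone. That p was also above 0.05 without CT-CTD 1 (0.0675), CT-CTD 3 (0.0689), CT-WD 2 (0.051), OE-CTD 2 (0.0592), OE-WD 1 (0.0941), OE-WD 3 (0.0648) or OE-WD 4 (0.0505), with r of 0.75 to 0.77. For Nfe2l2 with Hmox1, Nqo1, Gclm and Txnrd1, r was -0.03, 0.11, -0.20 and 0.35 and rho 0.029, 0.30, -0.20 and 0.31, with permutation p-values between 0.23 and 0.921 for r and between 0.289 and 0.928 for rho.

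Hmox1 (ENSMUSG00000005413, protein coding, chromosome 8, 75093621 to 75100589, plus strand) encodes the inducible heme oxygenase. By replicate, CPM values were 9.53, 6.65 and 6.31 (CT-CTD), 12.3, 8.55 and 7.51 (CT-WD), 8.51, 7.75, 9.85 and 6.43 (OE-CTD) and 10.97, 7.75, 8.08 and 8.40 (OE-WD). CT-WD 1 was highest and all groups overlapped. Its largest log2 fold change was 0.34, in CT-WD relative to CT-CTD (95% confidence interval -0.12 to 0.80). Nqo1 (ENSMUSG00000003849, protein coding, chromosome 8, 107388225 to 107403206, minus strand) encodes the quinone reductase often used as a readout of Nrf2 activity. CPM per replicate was 14.1, 12.9 and 12.2 (CT-CTD), 14.6, 14.7 and 13.2 (CT-WD), 14.2, 14.2, 14.8 and 13.7 (OE-CTD) and 14.7, 12.8, 17.4 and 12.1 (OE-WD). All groups overlapped, with OE-WD 3 highest and OE-WD 4 lowest. Its log2 fold changes in the 4 comparisons lay between 0.0035 and 0.12, and the widest interval, that of CT-WD relative to CT-CTD, ran from -0.15 to 0.38. Sod2 (ENSMUSG00000006818, protein coding, chromosome 17, 13006846 to 13040063, plus strand) encodes the mitochondrial superoxide dismutase. By replicate, CPM values were 295.3, 309.5 and 328.2 (CT-CTD), 308.4, 319.3 and 338.5 (CT-WD), 329.8, 326.8, 303.3 and 309.3 (OE-CTD) and 321.3, 289.9, 299.5 and 281.0 (OE-WD). Again all groups overlapped, and the log2 fold changes lay between -0.11 and 0.05 in the 4 comparisons. None of the 3 genes had an unadjusted p-value under 0.05 in any comparison of edgeR's test.

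The genes most alike over the 14 libraries, with Pearson's r as a description, were Dusp5 (0.92), Otulin (0.89) and Zbtb21 (0.88) for Nfe2l2, Tmem178b (0.86), Etv3 (0.83) and Ly6g6c (0.82) for Hmox1 and Ddx20 (0.83), Zfp867 (0.83) and Dll1 (0.81) for Nqo1. For Gclc they were Hey1 (0.86), Gm15446 (0.83) and Hist1h4c (0.82), for Gclm Traf3ip2 (0.90), Asb4 (0.87) and Cyp2e1 (0.87), for Txnrd1 Tmem178b (0.90), Ppil4 (0.88) and Gm42528 (0.87) and for Sod2 S100a1 (0.92), Gm5514 (0.92) and Aurkaip1 (0.89). Tmem178b was nearest to both Hmox1 and Txnrd1. CT-WD 3 was high for several of these genes as for Nfe2l2 and Gclc, and without it r was 0.80, 0.73 and 0.71 for Dusp5, Otulin and Zbtb21 with Nfe2l2 and 0.81, 0.76 and 0.76 for Hey1, Gm15446 and Hist1h4c with Gclc.

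Of 34 other Nrf2 target genes, 30 were tested and 0 were altered in any of the 4 comparisons or the interaction in edgeR's test. Between CT-WD and CT-CTD, 3 were higher and 1 lower at the unadjusted level (4.19% and 3.09% of all genes), with a median log2 fold change of -0.02. The smallest p-values were those of Ftl1, the ferritin light chain (0.33, edgeR adjusted p = 0.484), Abcc1, a glutathione conjugate exporter (-0.46, adjusted p = 0.604), and Sqstm1, a Keap1-binding autophagy receptor (0.23, adjusted p = 0.622). For OE-WD relative to CT-WD, 2 were higher and 5 lower (8.44% and 8.42% of all genes, median 0.04), led by thioredoxin, Txn1 (-0.25, edgeR adjusted p = 0.147), the epoxide hydrolase gene Ephx1 (0.54, adjusted p = 0.158) and Prdx1 (-0.24, adjusted p = 0.213). In OE-CTD relative to CT-CTD, 5 were higher and 5 lower (9.22% and 6.7% of all genes, median 0.04). There, the biliverdin reductase gene Blvra had an edgeR adjusted p of 0.0362 with a log2 fold change of -0.48, short of 1.5-fold, followed by Gsta3 (-2.09, adjusted p = 0.0758) and Ugdh (0.77, adjusted p = 0.0868). Between OE-WD and OE-CTD, 1 was higher and 1 lower (1.93% and 2.27% of all genes), and for the interaction 1 and 2 (2.57% and 3.34%). The summed level of the list, with Fth1 as its most abundant gene, was 3593 ± 94.4 (mean ± SD) in CT-CTD, 3733 ± 265.6 in CT-WD, 3464 ± 327.5 in OE-CTD and 3355 ± 211.6 CPM in OE-WD.

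A further 20 antioxidant enzymes, all tested, included superoxide dismutases, catalase, glutathione peroxidases and peroxiredoxins. The extracellular superoxide dismutase gene Sod3 was altered in OE-CTD relative to CT-CTD (log2 fold change 0.70, edgeR adjusted p = 0.0494), with 28.3 ± 3.53 CPM (SD, n = 4) and 17.5 ± 2.79 CPM (SD, n = 3). This made 1 of the 20 altered in that comparison, beside 1.91% of all genes. The call of Sod3 in edgeR's test was lost without CT-CTD 1, 2 or 3, OE-CTD 1, 2 or 3 or OE-WD 3 or 4 (adjusted p up to 0.241), and so it was with limma (0.0676). It was also lost with the replicate block (edgeR adjusted p = 0.162). In that comparison 3 of the 20 were higher and 0 lower at the unadjusted level (9.22% and 6.7% of all genes). Comparing OE-WD with CT-WD, 0 were higher and 3 lower (8.44% and 8.42% of all genes), Sod1 (-0.29, edgeR adjusted p = 0.0941), Gpx1 (-0.21, adjusted p = 0.175) and Gpx4 (-0.20, adjusted p = 0.212), and 0 were altered. In CT-WD relative to CT-CTD 1 was higher and 0 lower (4.19% and 3.09% of all genes), and in OE-WD relative to OE-CTD 0 were higher and 2 lower (1.93% and 2.27%), Gpx1 (-0.18) and Glrx5 (-0.20).

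Markers of other cell types in the muscle were examined beside these genes. In bulk tissue, fewer cells of a type and less RNA per cell cannot be told apart. Of 10 endothelial markers, 7 were higher and 1 lower in OE-WD relative to CT-WD (8.44% and 8.42% of all genes) and 6 were higher and 0 lower in OE-CTD relative to CT-CTD (9.22% and 6.7%) at an unadjusted p-value under 0.05 in edgeR's test, and 0 were altered. Cdh5 between OE-WD and CT-WD (0.46, edgeR adjusted p = 0.0322) and Tek between OE-CTD and CT-CTD (0.52, adjusted p = 0.0232) passed the adjusted level but were short of 1.5-fold. The summed level of the 10 markers, with Cdh5 as the most abundant, was by replicate 422, 414 and 452 (CT-CTD), 500, 440 and 470 (CT-WD), 521, 534, 499 and 488 (OE-CTD) and 541, 545, 548 and 548 CPM (OE-WD). All OE-WD libraries lay above all CT libraries in this sum.

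Of 7 fibroblast markers, 7 were higher in OE-CTD relative to CT-CTD (9.22% of all genes) and 3 in OE-WD relative to CT-WD (8.44%) at the unadjusted level, and 0 were altered in edgeR's test. Their sum, led by Col1a2, was by replicate 576, 507 and 415 (CT-CTD), 1379, 430 and 427 (CT-WD), 1253, 1488, 1361 and 837 (OE-CTD) and 950, 2297, 1267 and 999 CPM (OE-WD). Of 10 macrophage markers, 8 were higher in OE-CTD relative to CT-CTD (9.22% of all genes), 3 in CT-WD relative to CT-CTD (4.19%) and 0 in OE-WD relative to CT-WD (8.44%). Their sum, led by Lyz2, was by replicate 88.2, 53.8 and 47.4 (CT-CTD), 143, 72.2 and 59.2 (CT-WD), 90.7, 110, 142 and 88.7 (OE-CTD) and 85.3, 140, 87.5 and 93.0 CPM (OE-WD). CT-WD 1 was the highest CT library for both lists. None of the endothelial, fibroblast or macrophage markers was at 0 in all libraries, and their part in the differences of Mt1, Srxn1 and Gclm was not tested. Markers of slow fibres numbered 7, of which 3 were higher in OE-CTD (9.22% of all genes) and 2 in OE-WD (8.44%) relative to CT on the same diet. Of 8 fast fibre markers 0 were higher and 1 lower (6.7% and 8.42% of all genes) in each of these comparisons.

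Promoter sequences were searched for metal and antioxidant response elements. The RefSeq table (GRCm38.p6) held promoters of 8 of the 10 genes, in 10 entries, and not of Hmox1 and Gclc. The 250 bases before each start were searched on both strands. The motifs were the core of the metal response element, TGCACNC or TGCGCNC, the core of the antioxidant response element, TGACNNNGC, and its variant TGAGTCAGC, which was added after the sequence of Srxn1 was seen. The members of each pair cannot match the same bases on the same strand. Of all 32851 promoters, 21.4% held a metal response element core of either form, 10.2% held TGACNNNGC and 0.347% held TGAGTCAGC. Metal response element cores in these windows numbered 3 in Mt2, 2 in Gclm, 1 in Mt1 and 1 in Srxn1, and 0 in the other entries. Within the windows they were thus not confined to the metallothioneins. The windows depend on the start listed for each entry, and bases after it were not searched. The counts, that of Mt1 included, are therefore not the number of elements of a gene. TGACNNNGC was in the windows of Nfe2l2, Gclm, Mt2 and 1 of 3 entries of Txnrd1, and TGAGTCAGC in that of Srxn1. A match describes letters, not a bound site, and elements outside these windows were not searched.

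The windows of both metallothionein genes, neighbours in the genome with unlike counts, and of Srxn1 follow from 5′ to 3′ on the plus strand of each gene. They lie at chr8:94178839-94179088 (Mt1), chr8:94172368-94172617 (Mt2) and chr2:152105274-152105523 (Srxn1). Capitals mark metal response element cores in Mt1 and Mt2 and TGAGTCAGC in Srxn1.
Mt1: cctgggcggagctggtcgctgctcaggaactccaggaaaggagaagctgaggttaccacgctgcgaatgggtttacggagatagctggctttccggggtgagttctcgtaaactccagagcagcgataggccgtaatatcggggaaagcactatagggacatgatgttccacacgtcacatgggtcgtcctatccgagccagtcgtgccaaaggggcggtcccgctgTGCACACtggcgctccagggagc
Mt2: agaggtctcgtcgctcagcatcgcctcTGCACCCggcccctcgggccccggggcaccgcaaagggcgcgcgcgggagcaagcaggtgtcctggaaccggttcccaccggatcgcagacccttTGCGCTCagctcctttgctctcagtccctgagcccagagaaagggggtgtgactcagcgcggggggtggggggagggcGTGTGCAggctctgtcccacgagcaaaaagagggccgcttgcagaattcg
Srxn1: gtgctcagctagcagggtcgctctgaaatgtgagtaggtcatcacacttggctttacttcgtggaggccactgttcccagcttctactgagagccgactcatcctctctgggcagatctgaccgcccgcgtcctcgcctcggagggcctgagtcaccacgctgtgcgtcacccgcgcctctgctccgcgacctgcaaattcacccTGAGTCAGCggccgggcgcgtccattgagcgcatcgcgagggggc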

How the data were processed

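RNA of soleus and gastrocnemius muscle was sequenced in 14 libraries, grouped by their labels. The authors deposited counts of reads per gene, made per the submitters' processing notes with HISAT2 2.0.5 and featureCounts 1.5.0-p3 on mm10, and FPKM values, which include a scaling factor per library (a total of 79.9% to 98.0% of the summed counts). The annotation release and strand setting are not given in the sources used here. Positions of the 10 genes in the deposited table were those of GENCODE M21.

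Tests on counts used edgeR 4.0.16 (R 4.3.3), its TMM factors, filterByExpr (15458 genes left, at most 0.0694% of a library's counts removed) and quasi-likelihood tests on a fit of 4 group means, with Benjamini-Hochberg adjustment over all genes tested. The biological coefficient of variation was 17.0%. Log2 CPM used a prior count of 2. Correlations used 100000 permutations. The code was tested on simulated data. The number of libraries and the spread between them limit precision, and p-values measure the spread between libraries, since the sources do not say that each came from a separate mouse and the names of several EC-Myc OE libraries share a number. Floors cover counting error only.

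Alternatives were DESeq2 1.42.0, its size factors, no filter on low counts, the compared groups alone, the replicate number as a block, limma 3.58.1 on log2(FPKM + 1), and each library left out. Pairs of libraries within groups had a chi-square of at least 7.5 per degree of freedom, so no library was a copy of another in its group. Deviations from the group means correlated at 0.385, 0.123 and 0.203 between same-numbered CT-CTD and CT-WD libraries. Between same-numbered OE-CTD and OE-WD libraries they correlated at 0.0711 to 0.338. The labels do not say that same-numbered libraries are paired. The main tests therefore used no pairing, and the replicate block was run as an alternative only.

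Named genes were all 10, every listed gene that was altered, otherwise the 3 of a list with the smallest p-values, and the 3 genes most alike by Pearson's r. Lists were other Nrf2 targets, Nrf2 regulators and partners, antioxidant enzymes, metal homeostasis, glucocorticoid-responsive genes, interleukin-6 and acute-phase genes, and markers of muscle fibres (all, slow, fast), endothelial cells, macrophages, adipocytes, fibroblasts, blood and epidermis. The 10 genes and the lists were chosen with earlier results of these data known.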

Additional observations from a re-analysis of the deposited data

Results flagged for a closer look

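Among 18 sets of 4 EC-Myc OE libraries, from 9 genes on both diets, 1 held a library far from the rest. Nfe2l2 in OE-CTD 3 had 60.7 CPM, and its gap to the nearest library was 0.841 of the group's range, above Dixon's critical value for 4 libraries. Chance alone gives about 1 such library in 20 sets. CT groups, with 3 libraries each, were not tested in this way, so that CT-WD 3 could not be marked. No gene passed the adjusted level of the interaction test, where the smallest adjusted p of the 9 genes was 0.834 in edgeR's test.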

How the results depend on the processing

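Of the 9 genes tested (10 without the filter on low counts), 0 were altered between OE-WD and OE-CTD, between OE-CTD and CT-CTD or for the interaction in every setting run, and Mt1 kept its direction in every setting run for CT-WD relative to CT-CTD, OE-WD relative to CT-WD and the interaction. In OE-WD relative to CT-WD, where 1 was altered, the number was 2 (Mt1 and Srxn1) without the filter, 0 with the compared groups alone, 0 with the replicate block, 0 with limma, and 0 to 2 with each library left out. In CT-WD relative to CT-CTD, where 0 were altered, it was 1 (Mt1) with DESeq2 and 2 (Mt1 and Srxn1) without the filter.

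Counts over all genes moved more. For CT-WD relative to CT-CTD, 0 became 31 with DESeq2, 88 without the filter, 10 with the replicate block and 0 to 41 with each library left out (41 without CT-WD 1). For OE-WD relative to OE-CTD, 1 became 5 without the filter and 0 to 2 with each library left out. For OE-WD relative to CT-WD, 87 became 309 with DESeq2, 401 without the filter, 4 with the compared groups alone, 1 with the block, 30 with limma and 4 to 905 with each library left out (905 without CT-WD 1, 4 without OE-WD 2). For OE-CTD relative to CT-CTD, 295 became 509 with DESeq2, 570 without the filter, 14 with the block, 117 with limma and 64 to 440 with each library left out. For the interaction, 0 became 3 with DESeq2, 29 without the filter, 1 with the block and 0 to 1 with each library left out. By the labels, same-numbered libraries share only a replicate number. Their deviations correlated at 0.123 to 0.385 between CT-WD and CT-CTD, at 0.0711 to 0.338 between OE-WD and OE-CTD and at -0.23 to 0.0465 between genotypes. The block ended the call of Mt1 between OE-WD and CT-WD (log2 fold change -1.38, edgeR adjusted p = 0.212). Of the listed genes, the block ended the calls of Fkbp5, Pdk4 and Trim63 between OE-WD and CT-WD (edgeR adjusted p = 0.273, 0.255 and 0.274). It also ended those of Mafk, Sod3, Slc30a2, Fkbp5, Zbtb16, Fbxo32 and Junb between OE-CTD and CT-CTD (0.0989, 0.162, 0.16, 0.0976, 0.0842, 0.145 and 0.0672). Correlations changed sign for 2 of 8 pairs with each library left out, Nfe2l2 with Hmox1 (r from -0.15 to 0.17) and with Gclm (-0.38 to 0.017). Settings of the correlations and of the listed genes were chosen after the data were seen. The cause of these changes was not tested.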

Other observations

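Interleukin-6 and acute-phase genes, a set of inducers and targets of the cytokine response, numbered 12, of which 11 were tested. Junb, an immediate-early transcription factor, was altered in OE-CTD relative to CT-CTD (log2 fold change 1.56, edgeR adjusted p = 0.00704, 0.0518 without CT-CTD 3 and 0.0672 with the replicate block). It had 14.9 ± 3.99 CPM (SD, n = 3) in CT-CTD, 29.8 ± 9.11 CPM (SD, n = 3) in CT-WD, 44.0 ± 13.1 CPM (SD, n = 4) in OE-CTD and 33.8 ± 6.05 CPM (SD, n = 4) in OE-WD. Of the 11, 1 was thus altered in OE-CTD relative to CT-CTD, beside 1.91% of all genes. At the unadjusted level 2 were higher and 0 lower there (9.22% and 6.7% of all genes). In CT-WD relative to CT-CTD, 4 of 11 were higher and 0 lower at the unadjusted level (4.19% and 3.09% of all genes). Between OE-WD and CT-WD, 1 was higher and 4 lower (8.44% and 8.42%), among them the receptor gene Il4ra (-0.51, edgeR adjusted p = 0.0709). In OE-WD relative to OE-CTD 0 were higher and 1 lower (1.93% and 2.27% of all genes), Socs3, a feedback inhibitor of cytokine signaling (-1.10, edgeR adjusted p = 1). The 11 interaction values were all below 0, 5 of them at the unadjusted level (3.34% of all genes), and 0 were altered.

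Adipocyte markers summed to between 63.9 and 245.0 CPM per library, blood markers to between 125.1 and 381.9 CPM and epidermis markers to between 2.45 and 135.6 CPM. For adipocytes, 1 of 7 was higher and 1 lower in OE-CTD relative to CT-CTD (9.22% and 6.7% of all genes) and 1 higher in OE-WD relative to CT-WD (8.44%). For blood, 0 of 4 tested genes passed in any comparison. For epidermis, 1 of 7 was higher in CT-WD relative to CT-CTD (4.19% of all genes), in OE-WD relative to OE-CTD (1.93%) and in OE-CTD relative to CT-CTD (9.22%). Of the 10 muscle fibre markers, 1 was higher in OE-CTD relative to CT-CTD (9.22% of all genes). All of these are at an unadjusted p-value under 0.05 in edgeR's test, with 0 altered.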
